A study of Mus musculus with 36 samples.

Results

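The genes described here are 8 factors and markers of the mesenchymal state: the zinc finger repressors Snai1 and Snai2, the basic helix-loop-helix factors Twist1 and Twist2, the zinc finger homeodomain repressors Zeb1 and Zeb2, the paired-related homeobox factor Prrx1, and Cdh2, the adhesion protein N-cadherin. They were chosen by name, as the probes of the array whose annotated symbol is one of the 8. Of their 13 probes, 5 held only placeholder values and were dropped, which left 1 measured probe for each gene. All 8 genes were therefore read, out of 15731 genes with a measured probe. Each array had a detection limit set from its own negative signals, and signals over it are called above background. A gene was tested if at least 4 of the 36 arrays exceeded their limit. The members that met this were Snai2, Twist1, Twist2, Zeb1, Zeb2 and Prrx1 (6 of 8), among 10533 features tested in total, of which 9235 are genes with a symbol.

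The epithelial to mesenchymal transition is the switch by which cells of an epithelial sheet lose their junctions and become motile. Snail, Zeb and Twist proteins drive it, and Snail and Zeb proteins act by binding E-box sequences in promoters of epithelial genes such as Cdh1 (E-cadherin) and repressing them. Fibroblasts are mesenchymal cells that carry these factors, while mouse embryonic stem cells grow as compact epithelial-like colonies that carry Cdh1. Reprogramming of fibroblasts therefore passes through the reverse switch.

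Total RNA of 36 samples was hybridised to 1-colour mouse bead arrays from Illumina. Induced pluripotent stem (iPS) clones had been made from mouse embryonic fibroblasts (MEFs) by overexpressing Oct4, Sox2 and Esrrb (OSE, 8 clones), Oct4, Sox2 and Klf4 (OSK, 11 clones), or Oct4, Sox2, Klf4 and Tbx3 (OSKT, 11 clones). Embryonic stem (ES) cells of the line R1, in a medium for mouse ES cells, gave 4 replicates, and ES cells of the line D3, in a medium for MEFs, gave 2. Each ES group is 1 line, and line and medium cannot be told apart between R1 and D3. The labels used here give neither the strain of the fibroblasts nor a feeder layer.

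Between 8675 and 9720 probes stood above background on each array. Detection limits ran from 45.2 to 90.8 intensity units, the highest on OSKT clone 4, whose 75th percentile of signal was also the highest (1056.7 units, against 337.3 to 666.3 on the others). Of 16 measured pluripotency markers, 15 were above background on all 36 arrays, and the other, Nr5a2, on 35. Levels differed between the iPS sets and the ES lines for some of them. Zfp42 averaged 7.67 in OSE, 7.72 in OSK and 7.59 in OSKT clones, against 12.78 in R1 and 12.33 in D3, and Nr5a2 averaged 7.43, 7.55 and 7.60 against 9.92 and 9.53. Dppa3 went the other way, at 11.41, 11.41 and 11.29 against 7.07 and 8.74. Tbx3 averaged 10.85 ± 0.31 over the 11 OSKT clones and 10.74 ± 0.23 over the 11 OSK clones (SD), which did not pass the test (adjusted p = 0.556), so the array gives no check of that label. Several arrays were nearly identical within their set, by the yardstick of the R1 replicates. Averaging those would leave 5 OSE, 6 OSK, 6 OSKT, 1 R1 and 1 D3 sample, so clones may not be independent, and p-values measure the spread between these arrays only. All levels below are normalised log2 signals, "called" marks a p under 0.05 in limma after Benjamini-Hochberg adjustment over all features tested, and signals of different probes are not set against each other.

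Promoter windows of 300 bases (250 before to 50 after the annotated start, RefSeq, build GRCm38.p6, written along the gene's strand) are printed for 3 members that stood together in the clones, and for 2 epithelial genes, Rab25 and F11r, that were lower in OSKT than in OSK clones. Rab25 is a small GTPase of epithelial membrane recycling, and F11r is a tight junction adhesion protein. Capitals mark the E-box words CACCTG and CAGGTG, which are the same word read on either strand and are bound by Snail and Zeb proteins. Windows were also searched for the wider E-box CANNTG, which contains those words and reads alike on both strands.
Twist1 (chr12:33957421-33957720, plus strand): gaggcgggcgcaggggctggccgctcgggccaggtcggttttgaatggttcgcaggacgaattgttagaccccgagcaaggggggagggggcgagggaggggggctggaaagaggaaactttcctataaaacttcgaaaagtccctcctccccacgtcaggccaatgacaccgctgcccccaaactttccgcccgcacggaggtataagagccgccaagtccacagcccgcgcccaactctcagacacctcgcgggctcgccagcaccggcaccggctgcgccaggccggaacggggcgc
Twist2 (chr1:91801211-91801510, plus strand): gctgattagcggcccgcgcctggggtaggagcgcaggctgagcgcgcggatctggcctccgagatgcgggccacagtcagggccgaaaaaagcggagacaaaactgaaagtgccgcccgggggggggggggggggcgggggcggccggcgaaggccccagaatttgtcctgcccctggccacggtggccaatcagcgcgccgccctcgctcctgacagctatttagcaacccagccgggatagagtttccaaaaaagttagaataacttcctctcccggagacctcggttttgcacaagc
Prrx1 (chr1:163313601-163313900, minus strand): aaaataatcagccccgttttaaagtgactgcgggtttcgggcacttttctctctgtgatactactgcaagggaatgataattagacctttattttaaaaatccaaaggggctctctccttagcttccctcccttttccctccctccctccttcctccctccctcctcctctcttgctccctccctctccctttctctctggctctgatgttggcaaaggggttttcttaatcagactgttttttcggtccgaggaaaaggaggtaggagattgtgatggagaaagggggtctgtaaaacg
Rab25 (chr3:88548230-88548529, minus strand): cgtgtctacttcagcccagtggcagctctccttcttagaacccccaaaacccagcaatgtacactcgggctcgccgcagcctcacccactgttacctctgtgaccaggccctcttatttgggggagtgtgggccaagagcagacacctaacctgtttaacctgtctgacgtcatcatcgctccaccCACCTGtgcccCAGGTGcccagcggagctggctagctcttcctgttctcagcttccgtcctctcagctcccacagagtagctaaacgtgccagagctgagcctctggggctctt
F11r (chr1:171437311-171437610, plus strand): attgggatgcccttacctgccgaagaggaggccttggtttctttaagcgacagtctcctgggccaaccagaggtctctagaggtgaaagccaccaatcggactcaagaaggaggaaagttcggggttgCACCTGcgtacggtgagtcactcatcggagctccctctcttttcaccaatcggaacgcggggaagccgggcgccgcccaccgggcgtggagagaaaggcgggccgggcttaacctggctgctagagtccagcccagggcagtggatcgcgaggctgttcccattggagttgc
The windows of Twist1, Twist2 and Prrx1 hold no CANNTG word. The Rab25 window holds CACCTG starting at -64 and CAGGTG starting at -53 from the start of the gene, and the F11r window holds CACCTG starting at -122. Windows of Snai1, Zeb2 and Epcam, another epithelial gene, were searched as well and are not printed. The Snai1 window holds CACCTG starting at -126, and the Zeb2 windows hold no CANNTG word. The Epcam window holds CACCTG starting at -187 and CAGGTG starting at -19. The printed windows are thus a selection. No window was available for the members Snai2, Zeb1 and Cdh2 or for the epithelial genes Cdh1 and Esrp1, so these were not searched. Over all 32851 promoter windows of the same length, 72.3% hold CANNTG and 20.2% hold CACCTG or CAGGTG. A word is a description of the letters, and a window without it says nothing of binding elsewhere.

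The first group of results concerns the members that were hardly seen. Snai1, a Snail repressor of early mesoderm, was above background on 2 of 36 arrays, OSE clone 5 and OSK clone 11. OSE clones spanned 6.29 to 7.12 (median 6.52), OSK clones 5.99 to 6.89 (median 6.49) and OSKT clones 6.08 to 6.64 (median 6.32). R1 replicates read 6.37, 6.18, 6.40 and 6.22, and D3 replicates read 6.71 and 6.43. All groups overlapped near the detection limit except D3 and R1, which were both below background on every array, so the probe gives no order. Cdh2, which replaces E-cadherin in many mesenchymal cells, was above background on 3 of 36 arrays, 2 of OSK and 1 of OSKT clones. Its R1 signals were 6.30, 6.47, 6.48 and 6.16, and its D3 signals 6.30 and 6.26, all below background. The OSE clones ran from 6.19 to 6.92, the OSK clones from 6.20 to 7.04 and the OSKT clones from 6.26 to 6.93. Neither gene was tested, and a difference in them was not detectable at this signal.

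**Figure D1:**
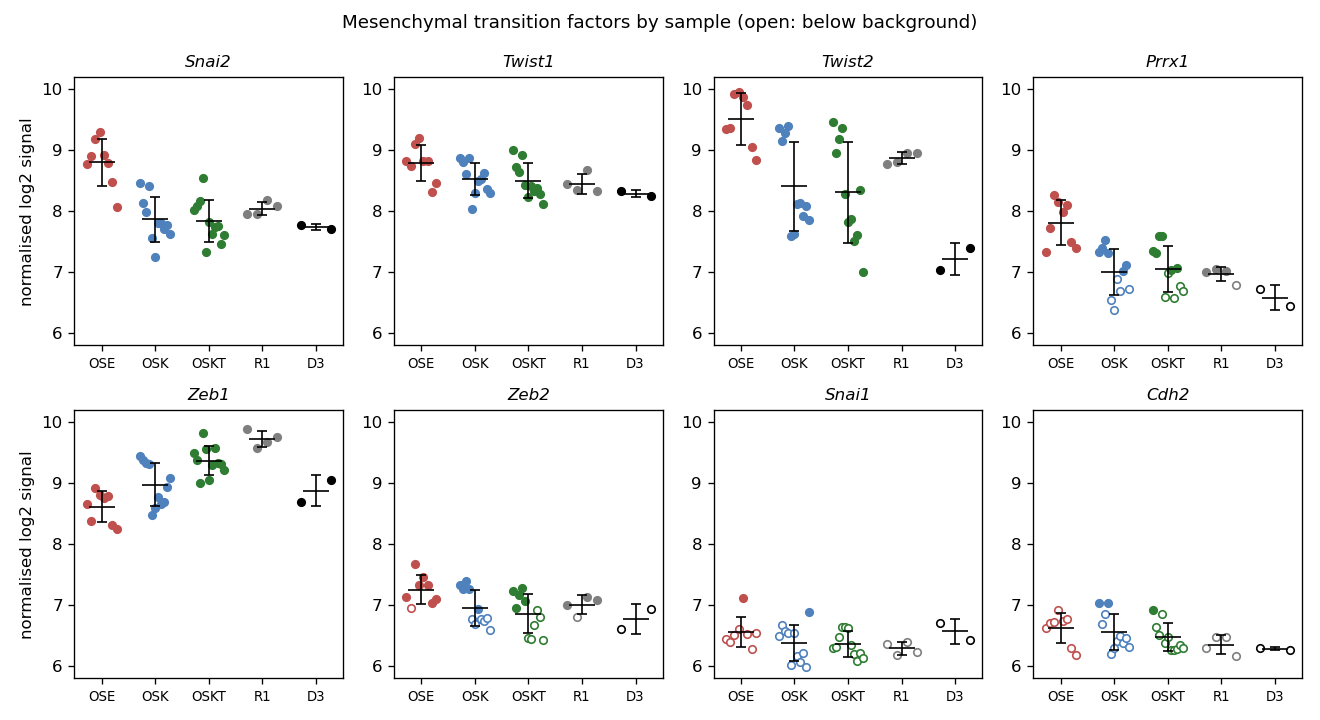
Normalised log2 signal (y axis) of the 8 genes in every sample, by group (x axis). Filled points are above background and open points are not, and black bars give the mean and SD. Snai2, Twist1, Twist2 and Zeb1 are filled throughout, OSE clones lie highest for Snai2, Twist2 and Prrx1, and R1 replicates lie highest for Zeb1.

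Snai2, the Slug repressor carried by fibroblasts and neural crest cells, was above background on all 36 arrays. It ran from 8.07 to 9.30 in OSE clones (median 8.85), from 7.25 to 8.46 in OSK clones (median 7.80) and from 7.33 to 8.54 in OSKT clones (median 7.76). R1 replicates read 7.96, 7.95, 8.18 and 8.09, and D3 replicates 7.78 and 7.71. OSE clones were thus the highest group, with an overlap of their lowest clones with the highest OSK, OSKT and R1 samples. By mean the order was OSE (8.80 ± 0.39, SD, n = 8), R1 (8.04 ± 0.11, n = 4), OSK (7.87 ± 0.36, n = 11), OSKT (7.83 ± 0.35, n = 11) and D3 (7.74 ± 0.05, n = 2). Of the neighbours compared below OSE, neither OSK and R1 (adjusted p = 0.451) nor OSKT and OSK (adjusted p = 0.891) passed the test.

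Twist1, a helix-loop-helix factor of cranial mesenchyme and limb buds, was above background on all 36 arrays and had the smallest range among the 6 tested members over the iPS clones (2.25-fold). It ran from 8.32 to 9.20 in OSE (median 8.82), from 8.03 to 8.87 in OSK (median 8.52) and from 8.13 to 9.00 in OSKT clones (median 8.41). R1 replicates read 8.45, 8.34, 8.68 and 8.33, and D3 replicates 8.33 and 8.25. All 5 groups overlapped, and by mean the order was OSE (8.79 ± 0.29, SD, n = 8), OSK (8.53 ± 0.27, n = 11), OSKT (8.50 ± 0.29, n = 11), R1 (8.45 ± 0.16, n = 4) and D3 (8.29 ± 0.06, n = 2). None of the neighbours compared passed the test (OSE and OSK, adjusted p = 0.0778, OSK and OSKT, 0.871, and OSKT and R1, 0.801).

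Twist2, the Twist paralog known as Dermo1 for its place in dermis, was above background on all 36 arrays and spread most. It ran from 8.84 to 9.96 in OSE clones (median 9.56), from 7.59 to 9.40 in OSK clones (median 8.12) and from 7.00 to 9.47 in OSKT clones (median 8.29). R1 replicates read 8.77, 8.81, 8.96 and 8.95, and D3 replicates 7.03 and 7.40. The R1 signals lay inside the range of OSK and OSKT clones, and the D3 signals lay below every OSE, OSK and R1 sample. The SD of Twist2 within the 3 iPS sets was 0.71 on the log2 scale, above that of 99.2% of tested features, whose median SD was 0.20. The lowest and highest of the 30 iPS clones, OSKT 11 and OSE 4, differed 7.76-fold.

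Prrx1, a homeobox factor of limb and facial mesenchyme, was above background on 23 arrays: 8 of 8 OSE, 6 of 11 OSK, 6 of 11 OSKT, 3 of 4 R1 and 0 of 2 D3. It ran from 7.33 to 8.27 in OSE (median 7.86), from 6.39 to 7.53 in OSK (median 7.02) and from 6.58 to 7.59 in OSKT clones (median 7.03). R1 replicates read 7.01, 7.05, 7.03 and 6.79, the last below background, and D3 replicates 6.73 and 6.44. Every OSE clone was above every R1 and D3 replicate, and the OSK, OSKT and R1 samples overlapped. Between OSE and R1, 42.9% of all features did not overlap either. Zeb2, a Smad-binding repressor, was above background on 20 arrays: 7 of 8 OSE, 5 of 11 OSK, 5 of 11 OSKT, 3 of 4 R1 and 0 of 2 D3. OSE clones spanned 6.95 to 7.68, OSK clones 6.60 to 7.40 and OSKT clones 6.43 to 7.28. R1 read 7.01, 6.80, 7.14 and 7.09, and D3 read 6.60 and 6.94, and all 5 groups overlapped except D3 and OSE.

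Zeb1, a repressor of Cdh1 and of epithelial microRNA genes, was above background on all 36 arrays and, by set means, lowest in OSE clones. It ran from 8.26 to 8.93 in OSE clones (median 8.71), from 8.48 to 9.45 in OSK clones (median 8.94) and from 9.01 to 9.83 in OSKT clones (median 9.34). R1 replicates read 9.89, 9.58, 9.68 and 9.76, and D3 replicates 8.70 and 9.06. All OSE clones lay below all OSKT clones and all R1 replicates, and all OSK clones lay below all R1 replicates. Between OSE and R1, 2 of 6 members did not overlap, where 42.9% of all features did not. Between OSK and R1 it was 1 of 6, where 36.9% of all features did not, and between OSE and OSKT 1 of 6, where 14.7% did not. By mean the order was R1 (9.73 ± 0.13, SD, n = 4), OSKT (9.37 ± 0.24, n = 11), OSK (8.97 ± 0.35, n = 11), D3 (8.88 ± 0.26, n = 2) and OSE (8.61 ± 0.25, n = 8). Of the neighbours compared, OSKT and R1 did not pass the test (adjusted p = 0.0524).

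The OSKT and OSK factor sets differ by Tbx3, and their comparison asks which members differ with it. Zeb1 alone was called, and it was 1.31-fold higher in OSKT clones (log2 0.39 ± 0.11, SE, adjusted p = 0.00688), with 11 of 11 OSKT clones above the OSK mean. All OSK clones 1 to 4 (9.31 to 9.45) also lay above that mean (8.97). The Zeb1 difference was 0.06 within clones 1 to 4, where it was not called, and 0.59 within clones 5 to 11. Over all clones, Zeb1 is 1 of 6 members tested, where 35.5% of all features were called in either direction. The other 5 had differences near 0: Snai2 -0.03 (95% interval -0.31 to 0.25), Twist1 -0.03 (-0.25 to 0.20), Twist2 -0.10 (-0.64 to 0.44), Zeb2 -0.10 (-0.34 to 0.13) and Prrx1 0.06 (-0.24 to 0.35). The intervals exclude log2 differences beyond 0.64 in either direction for those genes, and none was called. The Zeb1 difference kept its call without any single clone and under each alternative run (log2 0.35 to 0.51, adjusted p at most 0.0249), including near-identical arrays averaged and OSKT clone 4 left out.

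The OSE and OSK factor sets differ by Esrrb in place of Klf4. Snai2 was 1.91-fold higher in OSE clones (log2 0.94 ± 0.15, SE, adjusted p = 5.42e-06), Twist2 was 2.15-fold higher (1.10 ± 0.29, adjusted p = 0.00211) and Prrx1 was 1.76-fold higher (0.81 ± 0.16, adjusted p = 6.54e-05), each above the OSK mean in 8 of 8 OSE clones. All OSK clones 1 to 4 also lay above those means: Snai2 7.98 to 8.46 (OSK mean 7.87), Twist2 9.15 to 9.40 (8.41) and Prrx1 7.32 to 7.53 (7.00). Prrx1 was above background in 6 of 11 OSK clones, and with OSK signals raised to at least each array's detection limit its ratio was 1.59. Zeb1 was 1.29-fold lower (log2 -0.36 ± 0.12, adjusted p = 0.0165), below the OSK mean in 8 of 8. In all, 4 of 6 members were called, where 45.8% of all features were. Twist1 (log2 0.26, adjusted p = 0.0778) and Zeb2 (0.30, adjusted p = 0.0549) lay just outside the threshold. Both passed with array weights (0.00130 and 0.00596) and with the clone range as a covariate (0.0383 and 0.0426). Twist1 passed without OSE clone 7 (0.0259) or 8 (0.0373) or OSK clone 1 (0.0458) or 4 (0.0454). Zeb2 passed without OSE clone 2 (0.0356), 7 (0.0411) or 8 (0.0447) or OSK clone 1 (0.0308), 2 (0.0366), 3 (0.0260) or 4 (0.0364). The Zeb1 call was lost with arrays scaled to a common median (adjusted p = 0.121), with array weights (0.0574) and with near-identical arrays averaged (0.104).

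Against OSKT clones, which share the OSE clones with the comparison above, 6 of 6 members were called, where 60.1% of all features were. Snai2 (1.95-fold), Twist2 (2.30-fold), Prrx1 (1.69-fold), Zeb2 (1.32-fold) and Twist1 (1.22-fold) were higher in OSE clones, and Zeb1 was 1.69-fold lower (log2 -0.76 ± 0.12, SE, adjusted p = 3.12e-06). Signals above background came from 5 of 11 OSKT clones for Zeb2 and 6 of 11 for Prrx1. With OSKT signals raised to at least each array's detection limit, the ratios were 1.15 and 1.55. Groups that did not overlap were found for Zeb1 alone among members, and for 14.7% of features. The Twist1 call (log2 0.29, adjusted p = 0.0392) was lost without OSE clone 1, 3, 4, 5 or 6 or any of OSKT clones 5 to 11, with adjusted p between 0.0524 and 0.109. It was also lost under 5 of the other alternatives, and the Zeb2 call was lost with near-identical arrays averaged (adjusted p = 0.0866).

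**Figure D2:**
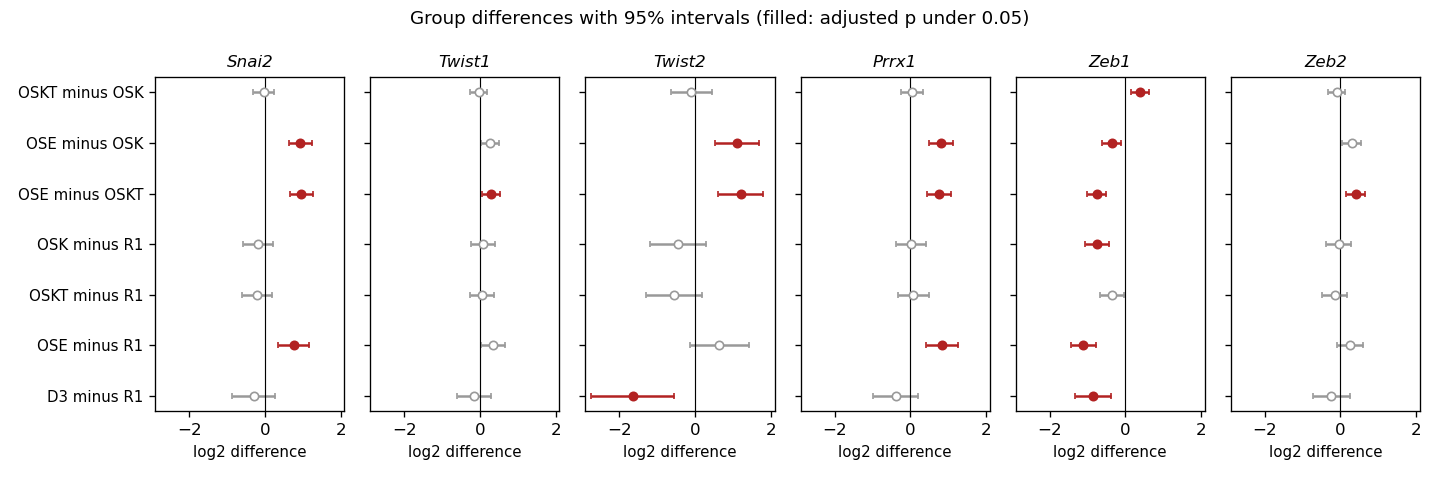
Log2 difference (x axis) of the 6 tested genes in 7 comparisons (y axis), with 95% intervals from the limma fit. Filled red points passed an adjusted p of 0.05. Snai2, Twist2 and Prrx1 lie right of 0 where OSE clones are compared with OSK or OSKT clones, and Zeb1 lies left of 0 there.

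R1 cells served as the ES reference for each iPS set, and the same 4 replicates enter all 3 comparisons. Against R1, OSK clones had 1 of 6 members called, where 53.8% of all features were. This was Zeb1, which was 1.68-fold lower (log2 -0.75 ± 0.16, SE, adjusted p = 0.00011). Twist2 was not called (log2 -0.46, adjusted p = 0.296), but its OSK mean joins clones on both sides of R1 (8.77 to 8.96). OSK clones 1 to 4 (9.15 to 9.40) lay above every R1 replicate, and all other OSK clones (7.59 to 8.14) lay below. The missing Twist2 call therefore does not show that OSK clones and R1 were alike. In OSKT, clones 1 to 4 (8.95 to 9.47) overlapped R1, and all others (7.00 to 8.35) lay below. OSKT clones had 0 of 6 called by limma, where 54.3% of all features were, and 1 of 6, Zeb1, at an unadjusted p under 0.05 (log2 -0.36, p = 0.0286, adjusted p = 0.0524). Zeb1 passed there without OSKT clone 4 (adjusted p = 0.0254), 5 (0.0461) or 8 (0.0451). OSE clones had 3 of 6 called, where 58.7% of all features were: Snai2 was 1.69-fold higher (log2 0.76 ± 0.20, adjusted p = 0.00149), Prrx1 was 1.79-fold higher (0.84 ± 0.21, adjusted p = 0.000712), and Zeb1 was 2.17-fold lower (-1.11 ± 0.16, adjusted p = 4.24e-07). Twist1 passed there without OSE clone 7 (0.0263) or 8 (0.0369) or R1 replicate 3 (0.0457). Averaging near-identical arrays left R1 with 1 sample, which the fit takes to vary like the other groups. The Snai2 difference was then 0.65 (adjusted p = 0.207) and that of Prrx1 0.77 (adjusted p = 0.121) on the log2 scale, neither called, and the Zeb1 call stood.

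D3 and R1 are both ES lines, and their comparison gives the size of a difference between lines and media. Twist2 was 3.15-fold lower in D3 (log2 -1.66 ± 0.54, SE, adjusted p = 0.0455) and Zeb1 was 1.80-fold lower (-0.85 ± 0.23, adjusted p = 0.0151). These are 2 of 6 members, where 9.73% of all features were called (2.98% without D3 replicate 1 and 3.46% without D3 replicate 2). Snai2, Twist2, Zeb1 and Prrx1 did not overlap between the lines, which 49.1% of features did not either with groups of 4 and 2. The Twist2 call was lost without any 1 of the 6 arrays, with adjusted p of 0.0674 without R1 replicate 1, 0.0685 without 2, 0.0822 without 3, 0.0810 without 4, 0.337 without D3 replicate 1 and 0.174 without D3 replicate 2. The Zeb1 call was lost without D3 replicate 1 (0.291). The mean of the 3 iPS sets minus D3 had 2 of 6 members called, where 47.1% of all features were (31.3% without D3 replicate 1). Twist2 was 2.88-fold higher in iPS clones (log2 1.53 ± 0.46, adjusted p = 0.00585), and Prrx1 was higher as well (fitted log2 0.70 ± 0.25, adjusted p = 0.0188). D3 was below background for Prrx1 on 2 of 2 arrays. With D3 signals raised to at least each array's detection limit, the Prrx1 ratio was 1.25. That ratio takes the mean of the 3 set means, which were 7.81 in OSE, 7.00 in OSK and 7.05 in OSKT. The lowest signals above background on the D3 arrays were 6.98 and 6.95, near the OSK and OSKT means. Both calls were lost without D3 replicate 1 (adjusted p = 0.112 and 0.0612), and that of Prrx1 also without D3 replicate 2 (0.236).

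The labels number the clones, and the members split by that number. The ranges 1 to 4 and 5 upward were set with these values known, so differences between them are given as descriptions with no test. In OSK, Twist2 ran from 9.15 to 9.40 in clones 1 to 4 and from 7.59 to 8.14 in clones 5 to 11, 2.63-fold apart by the means. In OSKT, it ran from 8.95 to 9.47 and from 7.00 to 8.35, 2.75-fold apart. Neither set had a clone in between. Snai2 was 1.52-fold higher in clones 1 to 4 of OSK and 1.50-fold higher in those of OSKT, with no overlap in either set. Prrx1 was above background in 4 of 4 clones of the lower range and 2 of 7 of the upper range in each set, with means of 7.39 and 6.77 in OSK and 7.46 and 6.82 in OSKT, and its ranges did not overlap either.

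The other members followed the split in part. Zeb2 was above background in 4 of 4 of clones 1 to 4 and in 1 of 7 of clones 5 to 11 in both sets, with no overlap in OSK and an overlap in OSKT. Twist1 was 1.34-fold higher in OSK clones 1 to 4, with an overlap, and 1.42-fold higher in OSKT clones 1 to 4, with none. Zeb1 was 1.54-fold higher in OSK clones 1 to 4, with no overlap, and 1.07-fold higher in OSKT clones 1 to 4, with an overlap. In all, 5 of 6 members did not overlap in OSK and 4 of 6 in OSKT, where 21.0% and 27.4% of all features did not. In OSE, clones 1 to 4 and 5 to 8 overlapped for 6 of 6 members, and the ranges were 1.03-fold to 1.39-fold apart. Of all features, only 11.3% did not overlap in OSE, so the overlap there is no result about the members.

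**Figure D3:**
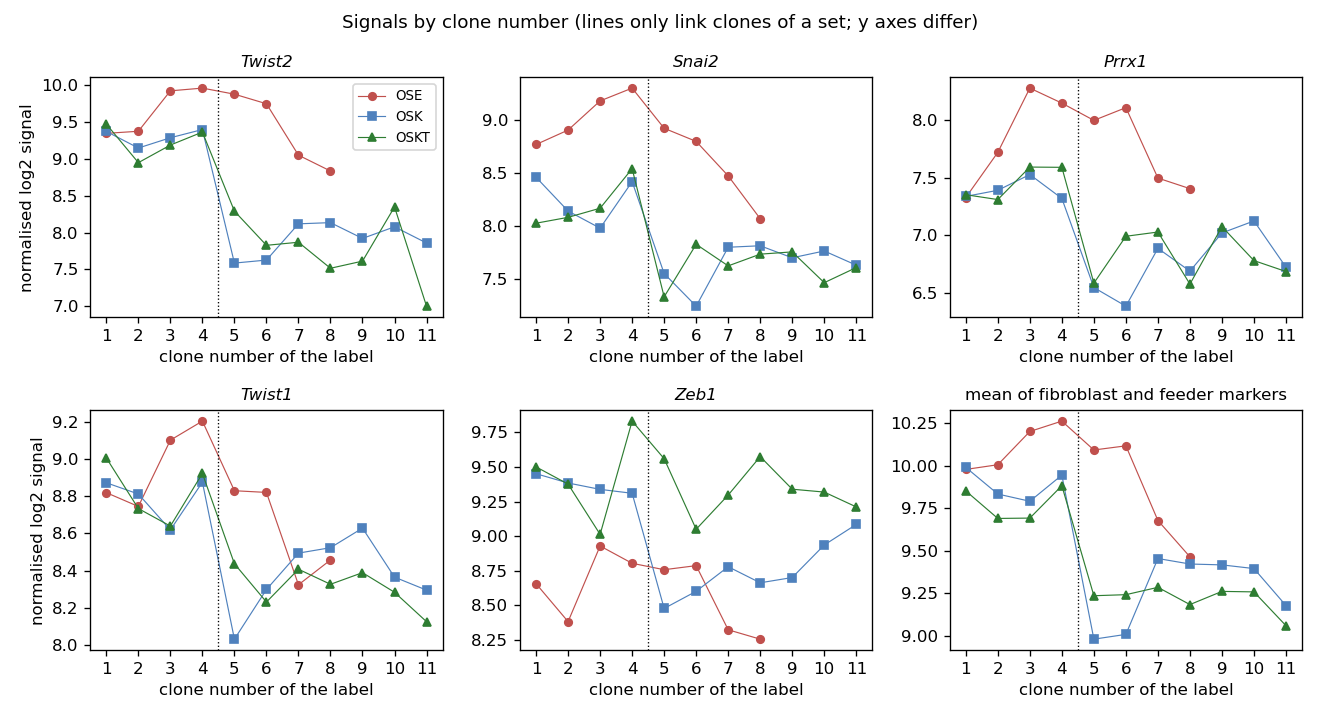
Normalised log2 signal (y axis) of 5 genes and the mean of 17 fibroblast and feeder markers, by the clone number of the labels (x axis) for OSE (circles), OSK (squares) and OSKT (triangles). The dotted line separates clones 1 to 4 from the rest, and OSK and OSKT drop there for Twist2 from 9.30 and 9.24 to 7.90 and 7.78 by their means.

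Comparing the sets inside each range keeps the clone number out of the difference. Within clones 1 to 4, 0 of 6 members were called by limma between OSKT and OSK, where 15.6% of all features were, and none had an unadjusted p under 0.05. The share of all features was 9.24% without OSK clone 1, 9.70% without OSK clone 4, 9.46% without OSKT clone 2 and 10.1% without OSKT clone 3. Zeb1 averaged 9.43 ± 0.34 over 4 OSKT clones and 9.37 ± 0.06 over 4 OSK clones there (SD, log2 difference 0.06, 95% interval -0.24 to 0.36). Within clones 5 to 11, Zeb1 was 1.50-fold higher in OSKT (log2 0.59 ± 0.11, SE, adjusted p = 6.87e-05), 9.34 ± 0.19 against 8.75 ± 0.21 (SD, n = 7 each). That is 1 of 6 members, where 42.0% of all features were called. The change of the difference from 1 range to the other was 0.53 ± 0.18 (adjusted p = 0.0499), also 1 of 6 members, where 14.8% of all features were called. As the ranges were set with these values known, that p is no independent evidence of a change, and the value is a description. This last call was lost without any 1 of 17 of the 22 clones, with adjusted p from 0.0563 to 0.170. These were OSK clones 1 to 9 and OSKT clones 1, 2, 3, 5, 7, 8, 9 and 10, and among them the value was smallest without OSKT clone 3 (0.39). With arrays scaled to a common median it was 0.23 (adjusted p = 0.463), a setting that moved the median of all features in this contrast to -0.21.

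OSE clones of each range can be set beside the others in the same way. In clones 1 to 4, Twist2 averaged 9.65 in OSE, 9.30 in OSK and 9.24 in OSKT clones, and in the upper range 9.38, 7.90 and 7.78. Snai2 averaged 9.04, 8.25 and 8.21 in clones 1 to 4, and 8.57, 7.65 and 7.62 above. The Twist2 gap between OSE and OSK was thus wider in the upper range, and the Snai2 gap was of like size in both and neither change was tested. With the clone range added to the fit, the OSE minus OSK differences were 0.86 for Snai2, 0.95 for Twist2, 0.75 for Prrx1 and -0.40 for Zeb1, and all 4 stayed called, with Twist1 (0.20) and Zeb2 (0.24) called as well. That fit takes the gap between sets to be the same in both ranges. Zeb1 averaged 8.69 in OSE and 9.37 in OSK clones 1 to 4, and 8.53 and 8.75 in the upper range. Its gap was thus wider in clones 1 to 4. Prrx1 averaged 7.87 in OSE and 7.39 in OSK clones 1 to 4, and 7.75 and 6.77 in the upper range. The Prrx1 gap was wider in the upper range, and neither of these changes was tested. Zeb2 averaged 7.28 in OSE and 7.32 in OSK clones 1 to 4, so OSE was not higher there. In the upper range it averaged 7.24 and 6.76, with 1 of 7 OSK clones above background.

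Markers of fibroblasts and feeder cells were measured beside the members, since these factors are carried by fibroblasts. Col1a1, Thy1 and Pdgfrb were among 12 of 20 measured markers above background on all 36 arrays, and Lum, Fap and Col5a2 were above background on none. Dcn, a matrix proteoglycan of fibroblasts, was above background in 7 of 8 OSE clones and 0 of 11 OSK and 0 of 11 OSKT clones, and also in 4 of 4 R1 and 2 of 2 D3 replicates. It averaged 7.50 in OSE, 7.73 in R1 and 8.67 in D3, and was 0.94 higher in D3 than in R1 on the log2 scale (adjusted p = 0.000448), against the direction of the marker mean. The mean of the 17 tested markers was 9.98 ± 0.27 in OSE (SD, range 9.47 to 10.26), 9.49 ± 0.36 in OSK (8.98 to 9.99), 9.42 ± 0.29 in OSKT (9.06 to 9.88), 9.23 ± 0.05 in R1 (9.18 to 9.30) and 8.39 ± 0.02 in D3 (8.37 to 8.40). It was 9.89 in OSK clones 1 to 4 and 9.27 in clones 5 to 11, and 9.78 and 9.22 in those of OSKT. Between OSE and OSK clones 11 of the 17 were higher and 1 lower (median log2 0.47), where 45.8% of all features were called. Between D3 and R1, Dcn was higher and 7 were lower (median -0.79), where 9.73% were.

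The fibroblast mean therefore stood in the same order as Twist2, Snai2 and Prrx1 for OSE against the other iPS sets, for D3 against R1 and for the clone ranges. By set means R1 stood apart from that order, since its fibroblast mean was below those of OSK and OSKT while its Snai2 and Twist2 means (8.04 and 8.87) were above theirs. By clone range, R1 was below clones 1 to 4 of OSK and of OSKT on the fibroblast mean, Snai2 and Twist2. Against OSK clones 5 to 11 its fibroblast mean was lower (9.23 against 9.27) and its Snai2 and Twist2 means were higher. Against OSKT clones 5 to 11 (fibroblast mean 9.22) R1 was higher on each. Over the 30 iPS clones the Pearson correlation of the fibroblast mean was 0.96 with Twist2, 0.93 with Snai2, 0.92 with Twist1, 0.91 with Prrx1 and 0.85 with Zeb2, and -0.02 with Zeb1. Within sets the correlation with Zeb1 was 0.89 in OSE (n = 8), 0.86 in OSK (n = 11) and 0.32 in OSKT (n = 11). These points share sets, clone ranges and near-identical arrays, and the values are descriptions. The part of fibroblast RNA in the members' differences was not tested, and in bulk RNA more cells of a type and more RNA per cell cannot be told apart. Other lineage markers also moved with the clone range. The mean of 8 mesoderm and primitive streak markers was 8.30 in OSK clones 1 to 4 and 7.01 in clones 5 to 11, with Mesp1, Foxf1, Hand2, Kdr and Foxc1 above background on 0 arrays. The mean of 9 primitive endoderm markers was 9.47 and 8.98, with Lama1 and Afp on 0 arrays.

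The members differed in how they moved together across the 30 clones. Snai2 and Prrx1 had a Pearson correlation of 0.91 and Twist2 and Zeb2 one of 0.90, and all 10 pairs without Zeb1 lay between 0.73 and 0.91. Zeb1 correlated between -0.21 and 0.15 with the others. Inside OSE (n = 8) and OSK (n = 11) alone, Zeb1 correlated between 0.76 and 0.93 with each of them, and inside OSKT (n = 11) between 0.00 and 0.48. Zeb1 thus rose and fell with the other members inside OSE and OSK, while by set means it was lowest in OSE, where the other 5 were highest.

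By the same measure, the features most like each member over the 30 clones were named as a description. For Twist2 they were Arhgap24 (0.98), Nrp1 (0.98) and Actg2 (0.98), and for Snai2 they were Tpbg (0.95), Mbnl1 (0.95) and Plau (0.94). For Twist1 they were Wls (0.93), Nrp1 (0.93) and Wnt5a (0.92), and for Prrx1 Plau (0.94), Emp3 (0.93) and Gask1b (0.93). Smooth muscle actin Acta2 (0.91), Rbms3 (0.91) and Tagln (0.90) were nearest to Zeb2. Zeb1 had Mpp1 (0.91), Gsta3 (0.88) and Smad2 (0.88), of which Gsta3 correlated at 0.25 inside OSKT. Nrp1 stood near both Twist genes, and Plau near Snai2 and Prrx1.

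A list of 35 epithelial genes, chosen from general knowledge, was followed beside the members, and 27 of them were tested. Repression of these genes by the members was not tested. Cdh1, the E-cadherin of adherens junctions, ran from 10.60 to 11.03 in OSE (median 10.81), from 10.03 to 10.86 in OSK (median 10.49) and from 9.51 to 10.23 in OSKT clones (median 9.67). R1 replicates ran from 9.56 to 9.99 and D3 from 9.85 to 9.86. OSE clones were above all OSKT, R1 and D3 samples, and OSKT clones overlapped with R1. Cdh1 was 1.63-fold lower in OSKT than in OSK clones (log2 -0.71 ± 0.09, SE, adjusted p = 2.37e-07), by -0.69 within clones 1 to 4 (adjusted p = 0.0021) and by -0.72 within clones 5 to 11 (adjusted p = 2.86e-06). It was 2.13-fold higher in OSE than in OSKT clones (adjusted p = 4.46e-12). OSKT clones did not pass against R1 (log2 -0.05, adjusted p = 0.731). Over the 30 iPS clones, the Pearson correlation of Cdh1 was -0.66 with Zeb1. With the other members it was 0.53 (Snai2), 0.48 (Zeb2), 0.45 (Twist2), 0.42 (Prrx1) and 0.31 (Twist1). The sets differ in Cdh1 and in Zeb1, and the correlation with Cdh1 was not taken inside each set. These values are descriptions of all 30 clones together.

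Between OSKT and OSK clones, 15 of the 27 epithelial genes were lower and 0 higher (median log2 -0.30, where that of all features was 0.002), and 35.5% of all features were called in either direction. After Cdh1 came Esrp1, a splicing regulator of epithelial cells (log2 -0.56, adjusted p = 1.56e-05), Rab25 (-0.49, adjusted p = 0.000151) and F11r (-0.45, adjusted p = 0.000859), the last 2 with the E-box words printed above. Within clones 5 to 11, 16 of 27 were lower and 0 higher, where 42.0% of all features were called. Within clones 1 to 4, 2 of 27 were lower and 0 higher, where 15.6% were. With arrays scaled to a common median, which moved the median of all features within clones 1 to 4 to 0.20, the counts there turned to 1 lower and 8 higher, while over all clones 11 were lower and 0 higher and within clones 5 to 11, 18 lower and 0 higher. Esrp1 differed by -0.79 in the upper range and -0.14 in the lower, where it did not pass (adjusted p = 0.389). Rab25 and F11r did not pass within clones 1 to 4 either (adjusted p = 0.457 and 0.503). As a description, the difference moved from the lower to the upper range by -0.65 for Esrp1, -0.54 for Rab25, -0.46 for F11r and -0.03 for Cdh1. Against R1, OSK clones had 15 of the 27 genes higher and 4 lower, where 53.8% of all features were called. OSE clones had 16 higher and 2 lower, where 58.7% were. The keratins Krt8 (log2 5.13) and Krt18 (4.44) were among those higher in OSK, and the epithelial factor Grhl2 among those lower (-1.31).

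**Figure D4:**
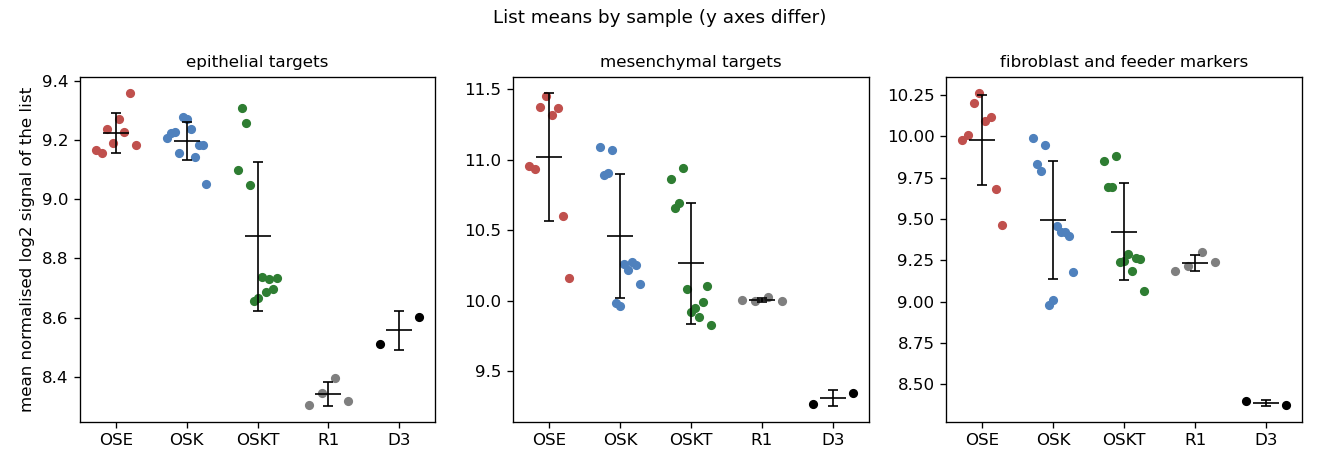
Mean normalised log2 signal (y axes, which differ) of the 27 epithelial, 20 mesenchymal and 17 fibroblast genes tested, for every sample by group (x axes), with mean and SD. OSKT clones 5 to 11 lie apart from clones 1 to 4 for the epithelial genes (8.70 against 9.18), and R1 and D3 lie below all iPS clones there.

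Genes of the mesenchymal state followed another pattern. Of 20 tested, 11 were higher and 0 lower in OSE than in OSK clones (median log2 0.56, where that of all features was 0.002), and 15 were higher and 0 lower than in OSKT clones. The shares of all features called were 45.8% and 60.1%. Lox, which crosslinks collagen (log2 0.82, adjusted p = 9.3e-07), Tnc, the matrix protein tenascin C (0.89, adjusted p = 0.000381), S100a4, a calcium-binding protein of fibroblasts (0.98, adjusted p = 0.000487) and Itgb1, an integrin subunit (0.57, adjusted p = 0.00108) had the smallest p against OSK. Between OSKT and OSK clones, 0 were higher and 1, the matrix protease Mmp9, was lower (log2 -0.67, adjusted p = 0.000638), where 35.5% of all features were called. In D3 against R1, 0 were higher and 3 were lower: Lox (log2 -2.14), the related Loxl2 (-1.30) and the matricellular growth factor Ccn2 (-1.64), where 9.73% of all features were called. The list mean was 10.99 in OSK clones 1 to 4 and 10.15 in clones 5 to 11, and 10.79 and 9.97 in those of OSKT. It shares its cell type with the fibroblast markers above, whose means moved with it.

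Signals and partners of the members were followed in further lists. Of 17 tested ligands, receptors and Smads that act upstream, 5 were higher and 3 lower in OSE than in OSK clones, with Tgfb3, a transforming growth factor ligand, 0.94 higher on the log2 scale (adjusted p = 1.11e-05) and Pdgfa, a platelet-derived growth factor, lower (log2 -0.62, adjusted p = 0.00323). These 8 of 17 are near the 45.8% of all features called, so the count is no result about the list. Between OSKT and OSK clones 1 was higher, the signal transducer Smad3 (0.25, adjusted p = 0.00932), and 3 were lower: the receptor Bmpr1a (-0.30), the common Smad4 (-0.21) and the Notch ligand Jag1, which was above background in 8 of 11 OSK and 0 of 11 OSKT clones, which makes 4 of 17 where 35.5% of all features were called. Of 18 tested co-repressors and partners, 3 were higher and 4 lower in OSKT than in OSK clones, among them the deacetylase Hdac2 (-0.47, adjusted p = 6.57e-05) and the co-repressor scaffold Sin3a (0.22, adjusted p = 0.0105). These 7 of 18 are near the 35.5% of all features, and under scaling to a common median the split was 4 higher and 2 lower. Against R1, 7 of the 18 were higher and 5 lower in OSK clones, 6 and 6 in OSKT clones, and 8 and 6 in OSE clones. The shares of all features called were 53.8%, 54.3% and 58.7%. Among the 18, Id2, an inhibitor of helix-loop-helix proteins, was higher than in R1 by 2.51 in OSK, 2.09 in OSKT and 1.82 in OSE clones, all called. Ctbp2, a co-repressor bound by Zeb proteins, was lower than in R1 in the same sets (-0.95, -1.01 and -0.87, all called). Id1, of the same family as Id2, averaged 9.40 in OSK and 9.04 in OSKT clones, below the 9.84 of R1, and 10.50 in OSE clones.

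Among 7 tested close relatives, Snai3, the Snail paralog, was above background on all 36 arrays. OSE clones spanned 10.80 to 11.36, OSK clones 10.23 to 10.82, OSKT clones 9.91 to 10.39, R1 replicates 9.61 to 9.86 and D3 replicates 9.42 to 9.56. Its order was that of Cdh1 among the iPS sets and the reverse of that of Zeb1. Snai3 was lower in OSKT than in OSK clones (log2 -0.40, adjusted p = 0.000105), higher in OSE than in OSK clones (0.50, adjusted p = 7.65e-06) and higher in OSE clones than in R1 (1.26, adjusted p = 4.87e-12). Prrx2, the Prrx1 paralog, was higher in OSE than in OSK clones (0.50, adjusted p = 0.0121) and lower in D3 than in R1 (-0.94, adjusted p = 0.0454), the same signs as the Prrx1 differences, of which that between D3 and R1 was not called.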

How the data were processed

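The authors deposited 2 tables of intensity values, per the file headers a table not scaled between arrays and a series table whose scaling is not given. Per the labels' protocols, RNA was labelled as biotin cRNA and hybridised to Illumina mouse bead arrays, and per the submitters' processing notes BeadStudio was used (version not given in the sources used here). The 24613 probes of the unscaled table included 5893 placeholders with all values between -5.5 and 15.5, which were dropped. The table used holds no control probes or detection p-values, so the negative signals of each array gave its detection limit (99th percentile of a normal distribution). Signals were corrected with normexp (offset 16), turned to log2, and quantile-normalised with limma 3.58.1 (R 4.3.3). Probes above background on at least 4 of 36 arrays were kept (10572 probes), and the brightest probe of each gene was used. Of all probes, 20984 had 1 symbol, 1 had several and 3628 had none.

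Groups came from the labels, and the number of unused sample columns was 0. All 36 arrays entered 1 limma fit (eBayes with trend, Benjamini-Hochberg adjustment, 2-sided), tested on simulated data. Named genes were the 8 members, up to 4 called genes of smallest p per list and comparison, and the 3 features most correlated with each member. Fibroblast, lineage and pluripotency markers were named after their values were seen. The members, lists and clone ranges were chosen with earlier results of these data known. Same-numbered samples deviated together (r over 0.1) in 9 of 11 pairs of OSK and OSKT, 5 of 8 of OSE and OSK, 5 of 8 of OSE and OSKT, and 0 of 20 pairs with an ES line. Pairing was taken to need every pair over 0.1, which no comparison met. Alternatives covered the scaled table, common median, background correction, filters, probe choice, samples in the fit, array weights, a replicate block, the clone range, near-identical arrays (RMS difference up to 0.220) and each sample left out. The number of arrays limits the precision.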

Additional observations from a re-analysis of the deposited data

Results flagged for a closer look

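The values below stood apart. Snai1 read 7.12 in OSE clone 5, where the other OSE clones lay between 6.29 and 6.61 (n = 8), and it was above background there. Prrx1 read 6.79 in R1 replicate 4, below background, where the other R1 replicates lay between 7.01 and 7.05 (n = 4). Each was farther from its nearest neighbour than Dixon's limit allows, in 2 of 16 groups tested, and chance gives about 1 in 20 groups. The difference of Zeb1 between OSKT and OSK clones was 0.53 larger on the log2 scale in clones 5 to 11 than in clones 1 to 4 (limma interaction, adjusted p = 0.0499). The ranges were set with these values known, so that p is no independent evidence, and the call was lost without any 1 of 17 of the 22 clones. No cause was tested for any of these values.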

How the results depend on the processing

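The Zeb1 difference between OSKT and OSK clones stayed called under every alternative run, and no member difference called in either setting changed direction. The number of members called moved as follows, and the cause was not tested. For OSE minus OSK it went from 4 to 6 with the clone range, 5 with array weights and 3 with a common median or near-identical arrays averaged. For OSE minus OSKT it went from 6 to 4 with near-identical arrays averaged and to 5 with the scaled table, a common median, no filter or only the groups compared. For OSK minus R1 it went from 1 to 2 with the replicate block and 2 with the clone range. For OSKT minus R1 it went from 0 (limma) to 1 with a common median, offset 50 or only the groups compared, 3 with array weights, and 2 with the replicate block or clone range. For OSE minus R1 it went from 3 to 6 with array weights, the replicate block or the clone range, and to 1 with near-identical arrays averaged. For D3 minus R1 it went from 2 to 1 with a common median, offset 50 or no filter, 4 with only the groups compared, and 0 by limma with near-identical arrays averaged. For iPS minus D3 it went from 2 to 4 with array weights or the replicate block, 5 with the clone range and 0 with near-identical arrays averaged. For the change between clone ranges it went from 1 to 0 with the scaled table, a common median, no background correction, offset 50, no filter, the replicate block or near-identical arrays averaged. Leaving out single samples gave 4 to 6 for OSE minus OSK, 5 to 6 for OSE minus OSKT, 0 to 1 for OSKT minus R1, 3 to 4 for OSE minus R1, 0 to 2 for D3 minus R1, 0 to 2 for iPS minus D3 and 0 to 1 for the change between ranges. R1 numbers run from 1 to 4, so the replicate block sets R1 against clones 1 to 4. The clone-range fit counted R1 and D3 with clones 1 to 4, though their replicates carry no clone number. Its counts against R1 or D3 therefore lean on clones 1 to 4 and are no plain adjustment. The Twist2 difference of OSE minus R1 was 1.19 on the log2 scale in that fit and 0.64 in the main fit.

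Averaging near-identical arrays changed the counts of all features called: 1365 against 3738 for OSKT minus OSK, 3027 against 4824 for OSE minus OSK, 2386 against 5664 for OSK minus R1, 2454 against 5723 for OSKT minus R1, 2917 against 6178 for OSE minus R1, 60 against 1025 for D3 minus R1, 2889 against 4959 for iPS minus D3, 0 against 1643 within clones 1 to 4, 2370 against 4429 within clones 5 to 11, and 4 against 1564 for the change between ranges. Only the groups compared gave 3346 for D3 minus R1 and 2566 within clones 1 to 4. Array weights gave 3557, 3291 and, for the change, 2681. A common median gave 4212 within clones 1 to 4 and 3437 for the change, and it moved the higher and lower calls to 2199 and 1037 for OSKT minus OSK (from 2056 and 1682), 2989 and 1725 for OSE minus OSK (2442 and 2382), 1777 and 3969 for OSK minus R1 (2720 and 2944), 2027 and 3701 for OSKT minus R1 (2784 and 2939), 230 and 514 for D3 minus R1 (491 and 534), 3892 and 320 within clones 1 to 4 (875 and 768), 1563 and 2374 within clones 5 to 11 (2245 and 2184), and 225 and 3212 for the change (664 and 900). The scaled table gave 302 and 549 for D3 minus R1 and 347 and 752 for the change. Without single samples the count fell to 314 (D3 replicate 1) and 364 (D3 replicate 2) for D3 minus R1, to 3293 (D3 replicate 1) for iPS minus D3, and within clones 1 to 4 to 973 (OSK clone 1), 1022 (OSK clone 4), 996 (OSKT clone 2) and 1064 (OSKT clone 3). Signals of Snai1 and Cdh2 near background limit what can be said of them.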
